A study of Homo sapiens with 3 samples.

Results

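The 4 HOX clusters, HOXA on chromosome 7, HOXB on chromosome 17, HOXC on chromosome 12 and HOXD on chromosome 2, were examined for peaks of XPB and XPD, the helicase subunits of TFIIH. Members were all peaks of either deposited list that touched the cluster windows HOXA chr7:27120000-27260000, HOXB chr17:46600000-46820000, HOXC chr12:54330000-54460000 and HOXD chr2:176940000-177060000 (hg19). The windows were set by position and not by any measured value, though with earlier results of these data known. They held 29 peaks, 20 of the 21555 XPB peaks and 9 of the 14570 XPD peaks, in 610 kb. Every member also had its summit, the tallest point of the fragment pileup, inside the window.

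The samples were a ChIP-seq library made with a rabbit polyclonal antibody against XPB, one made with a rabbit polyclonal antibody against XPD, and an input library without enrichment, all from HT1080 cells. HT1080 is an established human fibrosarcoma line. Per the series' design text all 3 came from the same pool of crosslinked chromatin, so each antibody has 1 library and no biological replicate. No p-value is therefore given, intervals are exact 95% intervals for counting error only, and neighbouring peaks are not independent. The input has no peak list here, so the background of the clusters was not compared. The protocol text shared by the samples names an antibody against CSB, another protein; the antibody fields of the samples were followed. A peak's score in these lists starts at 150 and is read, by the usual MACS layout, as a p-value on a log scale, with higher scores for stronger peaks. A summit's height is the number of stacked fragments and is not scaled to depth, which is unknown, so scores and heights are read only within a list.

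HOX genes encode homeodomain transcription factors that give cells along the body axis their positional identity. They lie in order within each cluster, low paralog numbers being used towards the head and high numbers towards the tail, and many cell types, fibroblasts among them, keep some HOX genes active and others silenced by Polycomb. TFIIH joins RNA polymerase II at promoters, where XPB drives the opening of DNA. XPD is the second helicase of the complex, and its helicase activity is needed chiefly for nucleotide excision repair. In a RefSeq table of GRCh38.p14, used here only for gene order, the clusters hold 39 protein-coding HOX genes: 11 in HOXA, 10 in HOXB, 9 in HOXC and 9 in HOXD. Along rising coordinates HOXB runs from HOXB1 to HOXB13, whereas HOXC runs from HOXC13 to HOXC4 and HOXD from HOXD13 to HOXD1. No hg19 annotation or sequence was used, so no peak is assigned to a gene and no peak sequence is printed.

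The clusters differed in how many peaks they held, and HOXB held most of them. For XPB, HOXA had 2 peaks, HOXB 13, HOXC 3 and HOXD 2. For XPD, HOXA had 2, HOXB 5, HOXC 2 and HOXD 0. HOXB thus carried 18 of the 29 members, in the longest of the windows (220 kb). Per Mb, XPB reached 59.1 peaks in HOXB (31.5 to 101), 23.1 in HOXC (4.76 to 67.4), 16.7 in HOXD (2.02 to 60.2) and 14.3 in HOXA (1.73 to 51.6). The intervals of HOXA, HOXC and HOXD overlap almost wholly, and that of HOXB overlaps each of them. The XPD densities were 22.7 in HOXB (7.38 to 53.0), 15.4 in HOXC (1.86 to 55.6), 14.3 in HOXA (1.73 to 51.6) and 0 in HOXD (0 to 30.7), with all intervals overlapping. Over the span between the first and last peak of each chromosome, the whole XPB list averaged 7.23 peaks per Mb and the whole XPD list 4.89.

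**Figure D1:**
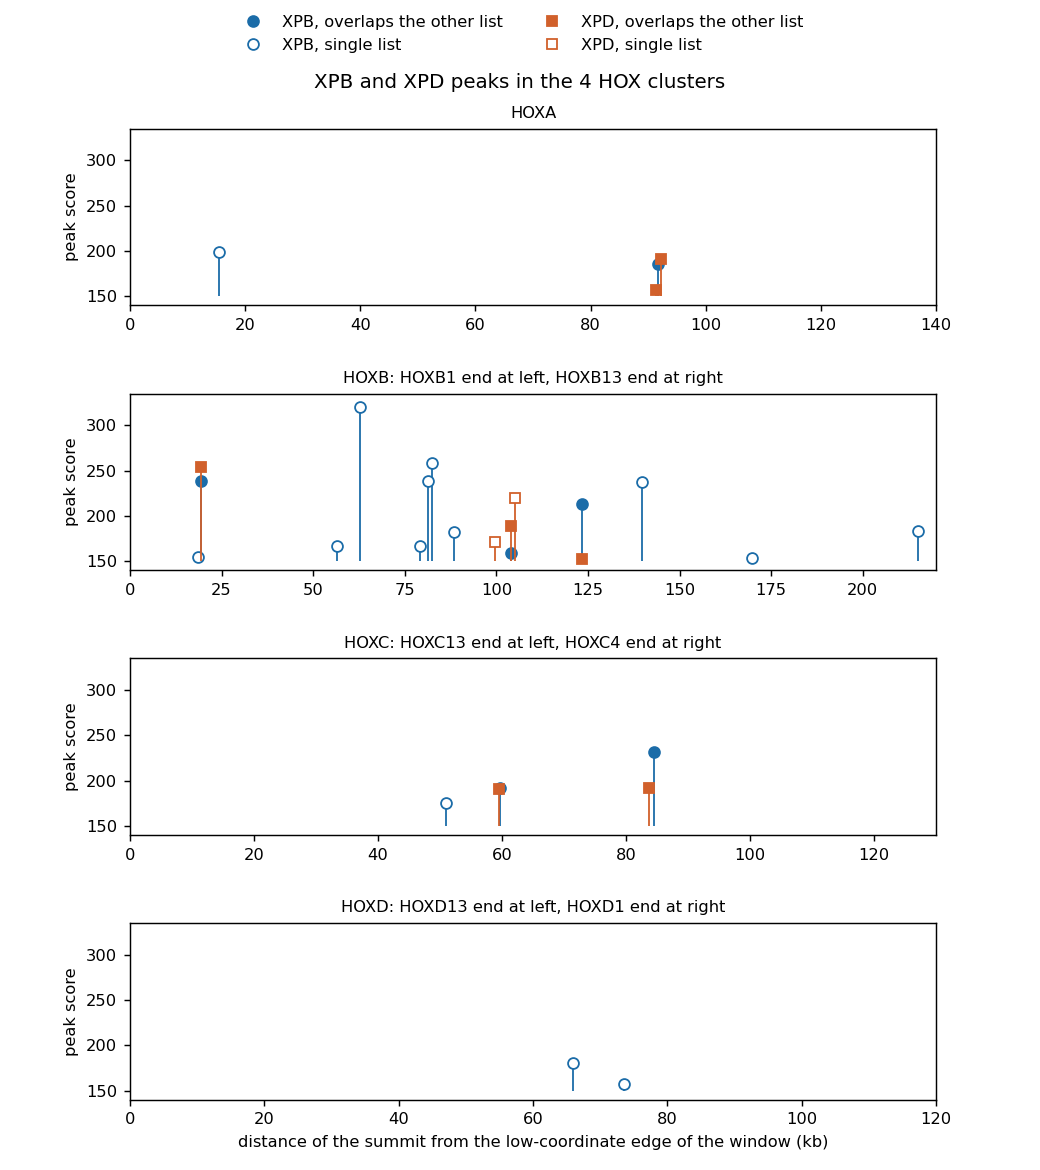
Position and score of every XPB peak (circles) and XPD peak (squares) in each cluster; the x axis is the distance of the summit from the low-coordinate edge of the window in kb, stems start at the lowest listed score of 150, and filled marks overlap a peak of the other list. HOXB holds 13 XPB and 5 XPD peaks, HOXD holds 2 XPB peaks and no XPD peak, and no peak scores above 320.1.

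Set against the megabase on each side, XPB peaks were denser in HOXB than in its neighbourhood. The HOXB flanks held 41 XPB peaks, 20 on the low-coordinate and 21 on the high-coordinate side, or 20.5 per Mb. The density in the cluster was 2.88 times that level (1.42 to 5.49). The ratio was 2.95 (1.35 to 6.24) against the low-coordinate side alone and 2.81 (1.30 to 5.89) against the other side. With peaks scoring at least 200 the ratio was 2.27 and its interval included 1 (0.760 to 5.71). For XPD the HOXB flanks held 34 peaks, and the ratio of 1.34 (0.408 to 3.44) did not depart from 1 beyond counting error. Of 8 windows of 220 kb laid outward from the edges of HOXB, the fullest held 10 XPB summits, against 13 in the cluster. For XPD, 4 of these windows held at least the 5 summits of the cluster, and the fullest held 9.

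HOXA and HOXD lie in stretches with few peaks. The 2 Mb around HOXA held 4 XPB and 3 XPD peaks, and the 2 Mb around HOXD also held 4 and 3. The XPB density ratio was 7.14 in HOXA (0.646 to 49.8) and 8.33 in HOXD (0.754 to 58.1). The XPD ratio was 9.52 in HOXA (0.795 to 83.1) and 0 in HOXD (0 to 40.3). All these intervals include 1, and each ratio rests on at most 2 cluster peaks. In windows of the cluster's own length laid outward from its edges, 11 of 14 windows around HOXA and 13 of 16 around HOXD held no XPB summit, and none held 2. For XPD, 1 of the 14 windows around HOXA held 2 summits, as the cluster did.

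HOXC lies in a neighbourhood rich in peaks and did not stand above it. Its flanks held 56 XPB peaks, 36 on the low-coordinate and 20 on the high-coordinate side, and 28 XPD peaks. The ratio was 0.824 for XPB (0.165 to 2.54) and 1.10 for XPD (0.127 to 4.36). Of 14 flanking windows of 130 kb, 6 held at least the 3 XPB summits of the cluster, and 6 held at least its 2 XPD summits.

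**Figure D2:**
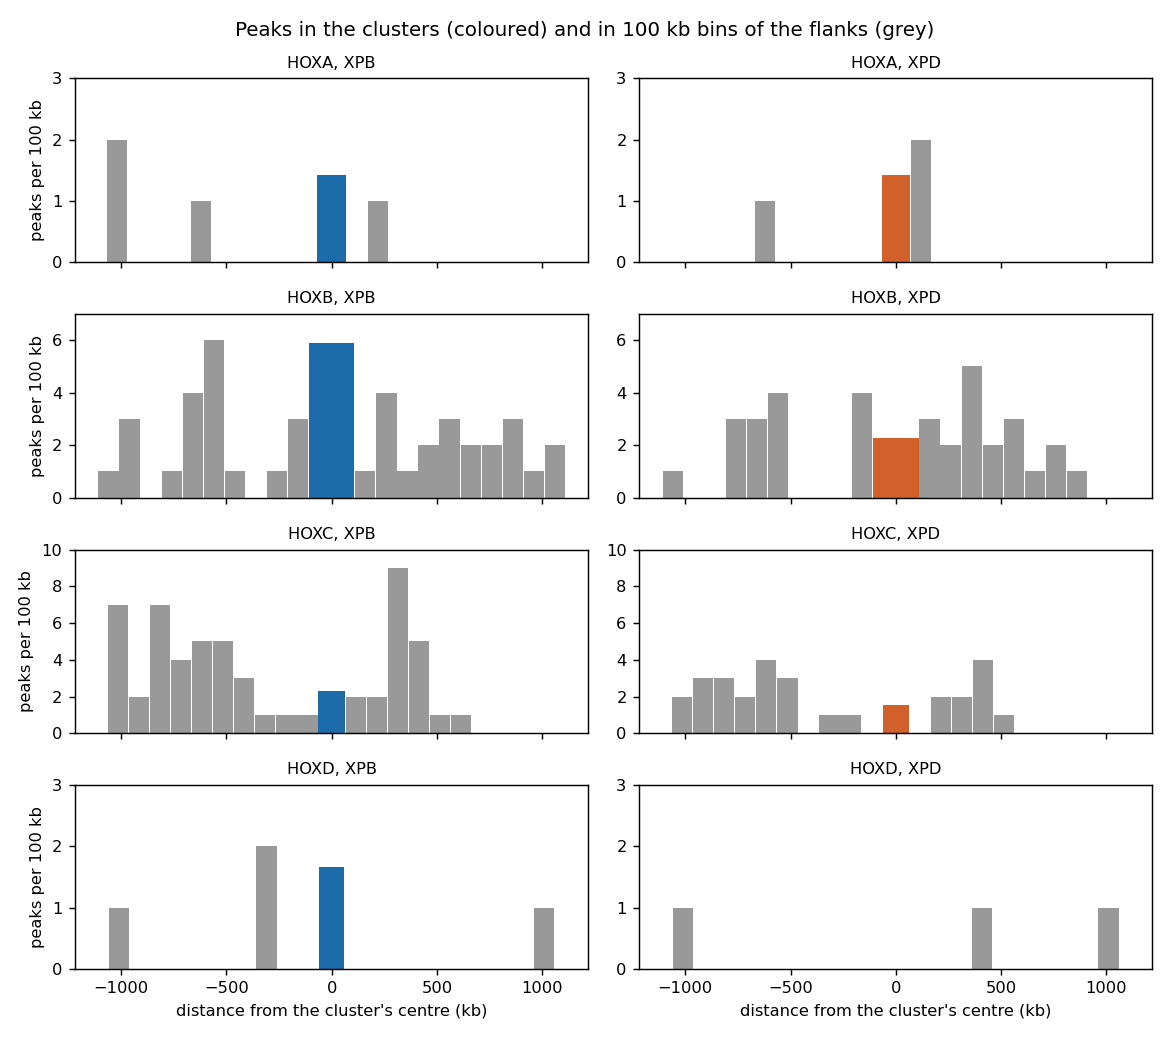
Peaks per 100 kb in each cluster (coloured bar, scaled to 100 kb) and in 100 kb bins of the 1 Mb flanks (grey bars) against distance from the cluster's centre in kb, for XPB (left) and XPD (right). The HOXA and HOXD flanks are nearly empty, with 4 XPB and 3 XPD peaks each, whereas the HOXC flanks hold 56 and 28.

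Summed over the 4 clusters, XPB stood at 32.8 peaks per Mb (20.03 to 50.6) and the flanks at 13.1 (10.7 to 15.9), a ratio of 2.50 (1.47 to 4.06). The sum rests on HOXB: without it the ratio was 1.68 with an interval that included 1 (0.651 to 3.67). With all 4 clusters kept and scores of at least 200, the ratio was 1.70 (0.653 to 3.75). Leaving out HOXC, which has the fullest flanks, raised the ratio from 2.50 to 4.34 (2.34 to 7.66). For XPD the clusters stood at 14.8 peaks per Mb (6.75 to 28.0) and the flanks at 8.50, a ratio of 1.74 (0.761 to 3.49). The XPB peaks outnumbered the XPD peaks 2.22 to 1 in the clusters, 1.54 to 1 in the flanks and 1.48 to 1 in the whole lists. XPB peaks made up 69% of the cluster members (49.2 to 84.7), an interval that includes the 59.7% of the whole lists.

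**Figure D3:**
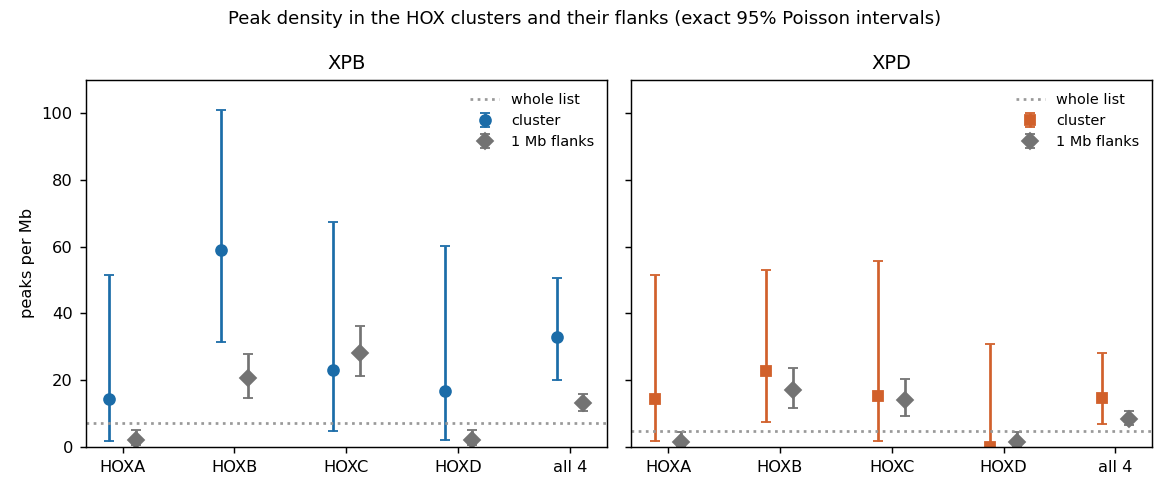
Peaks per Mb (y axis) in each cluster, in all 4 together and in their 1 Mb flanks, for XPB (left) and XPD (right), with exact 95% Poisson intervals; the dotted line is the mean of the whole list. The XPB value of HOXB, 59.1, lies above its flank value of 20.5 with intervals that do not overlap, and the other single clusters overlap their flanks.

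Windows of the same length over the whole genome put these counts in scale. With every chromosome tiled in adjoining 220 kb windows, 1.21% of 14048 windows held 13 or more XPB summits and 6.18% of 14046 held 5 or more XPD summits, as HOXB did. Chromosome 17 as a whole averaged 16.4 XPB and 11.4 XPD peaks per Mb, above the 7.23 and 4.89 of the whole lists. Chromosomes 2, 7 and 12 averaged 5.57 to 7.97 XPB and 3.64 to 4.86 XPD peaks per Mb. Windows as full as HOXA made up 20.7% for XPB and 14.7% for XPD, and windows as full as HOXC made up 11.8% and 13.8%. Windows with at least the 2 XPB summits of HOXD made up 18.4%. An empty window such as HOXD in the XPD list was the usual case, at 72.3% of 25742 windows. Assembly gaps are included in the windows behind all of these shares and lower the shares of full windows.

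The HOXA members formed a lone XPB peak and a compact site with both helicases. The XPB peak at chr7:27134750-27135820, 15.5 kb from the low-coordinate edge of the window, scored 198.6 with a summit of 10 fragments, and the nearest XPD peak was 75075 bp away. The other XPB peak, at chr7:27211327-27211972, scored 185.9 with 12 fragments. It bridged both XPD peaks of the cluster, chr7:27210896-27211690 (score 157.1, 13 fragments) and chr7:27211758-27213020 (score 191.3, 9 fragments), which were 67 bp apart. The 3 intervals together spanned 2125 bp, with summits 65.3 to 65.8% of the way to the high-coordinate edge. Between the lone peak and this site lay 75.9 kb without a summit of either list. Just outside the window, past the high-coordinate edge, XPD had peaks 16.3 and 32.5 kb out, at chr7:27276074-27276643 (score 182.5) and chr7:27292238-27293222 (score 163.1). EVX1, a homeobox gene that neighbours HOXA, is the next protein-coding gene on that side in the gene table. The highest XPB scores of the HOXA flanks were 284.1 and 221.4, 531 and 926 kb out on the low-coordinate side.

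HOXB held the highest-scoring members of both lists. Its 13 XPB peaks spread over 197 kb, with 4 summits in the 73.3 kb next to the HOXB1 edge, 7 in the middle 73.3 kb and 2 in the last 73.3 kb. The highest score of any member was 320.1, at chr17:46662293-46663565 with 11 fragments, and 12.2% of the XPB list scored at least as high. The nearest XPD peak was 35818 bp away. Next came a tight run of 3 XPB peaks in 4418 bp at 79.1 to 82.4 kb from the edge. It included chr17:46682151-46683226 (score 258.8, 14 fragments) and chr17:46681036-46681738 (score 238.7, 13 fragments), 412 bp apart, and no XPD peak overlapped the run. The XPB peak at chr17:46739396-46740435 scored 237.6 with 11 fragments and also stood alone, 15692 bp from the nearest XPD peak. The 6 remaining XPB peaks of HOXB overlapped no XPD peak, scored 153.4 to 182.8 and had 7 to 12 fragments.

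In 3 places in HOXB the helicases overlapped. The closest match of all was near the HOXB1 edge, where XPB at chr17:46619202-46620078 (score 238.2, 10 fragments) and XPD at chr17:46619142-46620065 (score 253.4, 13 fragments) had summits 7 bp apart. This XPD peak was the highest-scoring XPD member. At chr17:46703781-46704076 a narrow XPB peak of 296 bp (score 158.5, 14 fragments) lay wholly inside an XPD peak at chr17:46703556-46704155 (score 188.2, 13 fragments), with summits 39 bp apart. At chr17:46723046-46723819 an XPB peak (score 212.5, 11 fragments) contained an XPD peak at chr17:46723153-46723703 (score 152.5, 12 fragments), with summits 107 bp apart. The order of score at these sites was not the same in the lists. The site at 46723046 scored above the site at 46703781 for XPB and below it for XPD. In summit height the site at 46703781 was the taller in both lists, with 14 against 11 fragments for XPB and 13 against 12 for XPD.

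The remaining XPD peaks of HOXB, the only XPD members without an XPB overlap, lay on either side of the narrow site. They were chr17:46699384-46700047 (score 171.0, 12 fragments), 3733 bp from the nearest XPB peak, and chr17:46704701-46705881 (score 219.7, 11 fragments), 624 bp from it. Around the narrow site XPD thus had 3 peaks and XPB 1. From 123 kb to the HOXB13 edge, a stretch of 96.5 kb, XPD had no summit, and XPB had 3. The highest-scoring peaks of the HOXB neighbourhood lay outside the cluster. On the SKAP1 side, the side of the gene next to HOXB1 in the gene table, XPB scored 487.7 at chr17:46560147-46561834 and XPD 316.3 at chr17:46560223-46561436, 38.9 and 39.4 kb before the window. In the rest of the flanks the highest were an XPB peak of 373.2 and XPD peaks of 605.5 and 401.4.

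In HOXC all 5 members had summits between 51.0 and 84.5 kb from the HOXC13 edge. The first 51.0 kb of the 130 kb window held no summit, nor did the last 43.3 kb. The XPB peak at chr12:54380741-54381392 (score 175.7, 9 fragments) stood 7274 bp from the nearest XPD peak. At chr12:54389181-54389797 XPB scored 192.0 with 10 fragments, and an XPD peak at chr12:54388667-54389748 scored 191.2 with 9 fragments, the summits being 141 bp apart. At chr12:54413784-54415052 XPB scored 231.7 with 10 fragments, and XPD at chr12:54413296-54414259 scored 191.5 with 12. These last intervals overlapped by 476 bp, but their summits were 812 bp apart. Of all 5536 pairs of the lists, 94.2% had closer summits or the same distance. The flanks of HOXC held higher scores, up to 535.5 and 456.4 for XPB and 579.8 and 465.0 for XPD.

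HOXD held only XPB peaks, with summits 55.0 and 61.3% of the way from the HOXD13 edge to the HOXD1 edge. The peak at chr2:177005436-177006206 scored 180.2 with 12 fragments. The peak at chr2:177013383-177013840 scored 157.2 with 15 fragments, the tallest summit of any XPB member, reached by 20.9% of the XPB list. Their summits were 7.59 kb apart. The first 66.0 kb of the window, from the HOXD13 edge, held no summit, nor did the last 40 kb. The nearest XPD peak was 368305 bp away. The highest scores of the flanks, 472.4 for XPB and 324.5 for XPD, lay 908 and 907 kb out on the EVX2 side. The next highest were 177.5 for XPB and 160.1 for XPD.

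The members had median scores near those of their lists. Few or none had high scores, but with 20 XPB and 9 XPD members these shares carry wide counting error, and no interval is given for them. The XPB members ranged from 153.4 to 320.1 with a median of 184.3 (167.1 to 231.7), and the whole XPB list had a median of 189.4 and the flanks 202.8. The XPD members ranged from 152.5 to 253.4 with a median of 191.2 (157.1 to 219.7), and the whole XPD list had 185.1 and the flanks 178.1. Above their list's median were 9 of 20 XPB members and 6 of 9 XPD members. At a score of 200 or more were 7 of 20 XPB members (35%) and 2 of 9 XPD members (22.2%), against 43% of the XPB list and 38.8% of the XPD list. At 300 or more were 1 XPB member and no XPD member, against 14.3% and 11.9%. In the flanks 18 of 105 XPB peaks and 11 of 68 XPD peaks reached 300. Summit heights ran from 7 to 15 fragments for XPB, with a median of 11 (10 to 12), the same as in the whole list, and from 9 to 13 for XPD, with a median of 12 (9 to 13) against 13. None reached 20 fragments, a height that 6.64% of the XPB list and 8.74% of the XPD list reached. No XPD member was above 13 fragments, against 41.8% of the XPD list, and 7 of 20 XPB members (35%) were above 11, against 47.1% of the XPB list. Width ranged from 296 to 1286 bp in XPB members and from 551 to 1263 bp in XPD members, with medians of 772.5 and 924 bp against 833 and 937 bp in the lists.

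**Figure D4:**
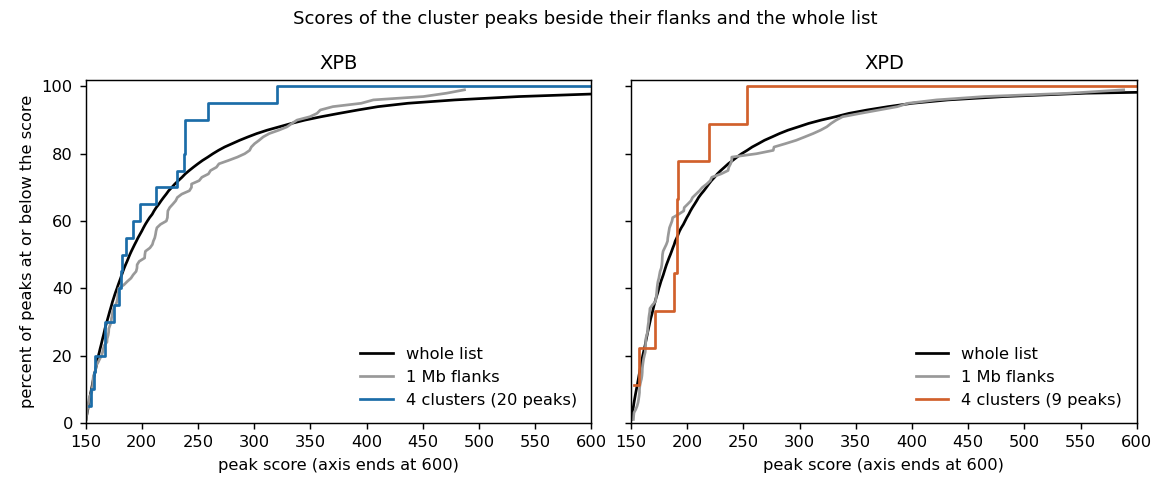
Cumulative percentage of peaks (y axis) at or below each score (x axis, cut at 600) for the cluster members (coloured steps), their 1 Mb flanks (grey) and the whole list (black). The 20 XPB members end at 320.1 and the 9 XPD members at 253.4, while the whole lists and the flanks continue to higher scores.

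Most XPD members overlapped an XPB peak, and most XPB members overlapped no XPD peak. Of the XPD members, 7 of 9 (77.8%, 39.99 to 97.2) overlapped an XPB peak by at least 1 bp, against 38.7% of the XPD list and 39.7% (28.0 to 52.3) of the flanks. Both HOXA peaks, 3 of the 5 HOXB peaks and both HOXC peaks did so. Of the XPB members, 6 of 20 (30%, 11.9 to 54.3) overlapped an XPD peak, against 26.6% of the XPB list and 25.7% (17.7 to 35.2) of the flanks, a share near the background. The counts differ by 1 because 1 HOXA peak of XPB met 2 of XPD. Of the 7 XPD members that scored under 200, 6 overlapped (85.7%, 42.1 to 99.6), against 24.9% of such peaks in the XPD list. Of the 2 that scored 200 or more, 1 overlapped, against 60.4% of such peaks in the list. The 7 overlapping XPD members had a median score of 191.2, against 185.1 in the whole XPD list. The XPD share changed with the overlap rule. With a reciprocal overlap of 50% it fell to 3 of 9 (33.3%, 7.49 to 70.1), against 32.2% of the XPD list. Of the 4 members lost, 3 were covered to 45.8, 49.3 and 49.4%, short of that limit. The one at 49.3% contained its XPB partner whole, and the one at 45.8% covered 56.3% of its partner. The one at 49.4%, in HOXC, covered 37.5% of its partner, so it fell short on both sides. With summits within 250 bp the share was 5 of 9 (55.6%, 21.2 to 86.3), against 26.4%. With the lists cut to equal length and an overlap of 1 bp it was 66.7% (29.9 to 92.5), with no whole-list share given for that setting.

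Across the 6 pairs of mutually best overlapping peaks in the clusters, summits lay 7, 39, 107, 141, 236 and 812 bp apart, with a median of 124 bp. The median over all 5536 pairs was 97.5 bp. The fragments were 400 to 700 bp long, per the labels' protocols, so most of these distances are shorter than a fragment. With members of either list joined into a site where less than 2.5 kb separated them, a distance chosen after the data were seen, the clusters held 18 sites. Both helicases were listed at 6 of these, XPB alone at 11 and XPD alone at 1. HOXA had 1 shared site and 1 of XPB, HOXB had 3 shared sites, 7 of XPB and 1 of XPD, HOXC had 2 shared sites and 1 of XPB, and HOXD had 2 of XPB. The lists hold only peaks that score 150 or more, so a site missing from a list was not detected at that threshold and may still be bound.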

How the data were processed

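ChIP-seq of XPB and XPD and an input were sequenced from HT1080 cells. The submitters' processing notes name Bowtie 0.12.7, MACS 1.4 and the hg19 build; the control and cutoff are not given in the sources used here. Each deposited list gives a score per peak and a summit signal (pileup height), read by the usual MACS layout and not scaled to depth by the authors as far as the values show. Read depth is unknown. BED positions were converted to 1-based coordinates.

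Peaks were counted in windows by overlap of at least 1 bp. Density ratios carry exact conditional binomial intervals, counts exact Poisson intervals and shares Clopper-Pearson intervals, all at 95%; PCR copies are not independent molecules. No test was possible with 1 library per antibody. Named peaks are all members, except that in HOXB the 5 highest-scoring and all overlapping XPB peaks are named and the rest summarised, and the 2 highest-scoring flank peaks per list and cluster; the XPD flank peak beside HOXB that scored 316.3 lies outside this rule and was chosen after its values were seen. The windows and comparisons were chosen with earlier results of these data known. Functions were tested on simulated lists. Alternatives covered membership, score, flanks, overlap rule, list length and each cluster left out. Python 3.11.15, numpy 2.4.6, pandas 2.3.3, scipy 1.17.1 and matplotlib 3.10.9 were used.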

Additional observations from a re-analysis of the deposited data

Results flagged for a closer look

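In 2 clusters the lists lay on opposite sides of their flanks. In HOXC the density ratio of cluster to flanks was 0.824 for XPB and 1.10 for XPD, and in HOXD it was 8.33 for XPB and 0 for XPD. The difference between the lists was not tested, since each has 1 library, and all 4 intervals include 1.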

How the results depend on the processing

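Of 121 alternative values, 94 stayed within the interval of the reported value or within 1.5 times a count, 26 moved outside and 1 reversed. The score threshold accounted for most. At scores of at least 200, XPB counts in HOXA, HOXB, HOXC and HOXD were 0, 6, 1 and 0, and XPD counts 0, 2, 0 and 0. At scores of at least 300, HOXB kept 1 XPB peak, and every other count of either list was 0. The density ratio of the 4 clusters to their flanks at scores of at least 300 was 0.729 for XPB (0.0175 to 4.615) and 0 for XPD (0 to 5.225). The XPB value is the one counted as reversed, since it fell below 1 from 2.50. It rests on 1 cluster peak, and its interval includes both 1 and 2.50. At that score the XPB ratio was 1.30 in HOXB and 0 in HOXC and HOXD, and the XPD ratio was 0 in HOXB and HOXC. At scores of at least 200 the ratio was 0 for XPB in HOXA and HOXD and for XPD in HOXC. The intervals of all these ratios at 200 and 300 include 1. HOXA had no flank peak at scores of at least 300 in XPB, or at 200 or 300 in XPD, so those ratios could not be formed. Without HOXC the XPB ratio was 4.34. The share of XPD members that overlapped XPB was 33.3% with a reciprocal overlap of 50% and 100% without HOXB. Other flank sizes, lists of equal length, covered bases and summits as the membership rule moved no value outside its interval. Within the interval, flanks of 500 kb turned the XPD ratio of HOXB to 0.988. The site counts have no interval. Joining within 1 kb gave 19 sites and within 10 kb 13, against 18, and sites with both helicases stayed at 6. The small numbers of peaks and the unknown depth limit all comparisons.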
